A study of Mus musculus with 12 samples.

Results

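The complement components described here are 9 genes read from a count table of periocular skin, taken as the rows named *C2*, *C3*, *C4b*, *Cfb*, *Cfd*, *C1ra*, *Serping1*, *C3ar1* and *C5ar1* among 21247 genes in all. All 9 were in the table and all 9 reached the minimum of 10 counts summed over the libraries that was needed for testing, as did 20454 genes of the whole table. RNA-seq had been made from eye-skin biopsies of 6-week-old BALB/c mice, with 4 libraries in each of the groups ft/ft and ft/ftMyD88-/-, as the labels name them. Both groups carry ft/ft, a spontaneous loss-of-function point mutation of filaggrin, which packs keratin filaments in the outer epidermis, and the methods state that the matted (ma) mutation of the original strain had been removed. The second group also lacks MyD88, the adaptor through which toll-like receptors and receptors of the interleukin-1 family signal, from an in-house cross with MyD88 deficient mice in which no promoter or Cre line is named. Samples of WT mice (4) were not analysed here, and no level is set against filaggrin-sufficient skin. The number of mice stated for each group equals its number of libraries, though the labels do not tie a library to a mouse.

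Complement is a cascade of proteases and their substrates that marks surfaces for uptake, recruits leukocytes and forms pores in membranes. The classical pathway starts from C1, in which C1q binds a target and the proteases C1r and C1s cut C4 and C2, whereas the alternative pathway amplifies deposited C3 through factor B and factor D. Most plasma complement is made by the liver, but skin cells such as fibroblasts, keratinocytes, macrophages and adipocytes also transcribe components, and the fragments C3a and C5a act on receptors of myeloid cells.

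Some features of the libraries bear on every value below. The ft/ft libraries held 18941705 to 29255129 counts and the ft/ftMyD88-/- libraries 15802957 to 27037997, at which 3 counts, the most that a library with 0 counts allows, correspond to 0.102 to 0.183 CPM (counts scaled to a common library size, per 1e6). *Myd88* itself stood at 41.2 ± 7.29 CPM in the ft/ftMyD88-/- group and was thus not lower than the 30.7 ± 4.74 of ft/ft (SD, n = 4 each; log2 fold change 0.42, edgeR adjusted p = 0.0484), and gene counts do not show whether an exon was lost. The design text gives female mice, but *Ddx3y* of the Y chromosome had 65.0 CPM in ft/ft against 0.147 in ft/ftMyD88-/-, and *Xist* of the inactive X had 0.0107 and 49.4. Genotype and sex therefore cannot be told apart in any comparison below. The paper describes spontaneous inflammation around the eyes in all ft/ftMyD88-/- mice by the age sampled, with a thicker epidermis. In ft/ft mice it describes no visible inflammation. Every comparison below is thus also between inflamed skin and skin without visible inflammation, and the part of inflammation in the values was not tested. *Tmem79*, the gene of the ma mutation, separated the groups (59.2 ± 2.92 CPM in ft/ft against 16.4 ± 2.10 in ft/ftMyD88-/-, SD, n = 4 each; log2 fold change -1.85, edgeR adjusted p = 5.08e-07), and *Flg* had 103 and 242 CPM with overlapping libraries (edgeR adjusted p = 0.120). The epidermal keratin *Krt14* was at 4717 and 4881 CPM in ft/ft and ft/ftMyD88-/-, but other cell markers differed: 6 of 7 skeletal muscle genes were lower in ft/ftMyD88-/-, with summed CPM of 3006 to 5787 against 7680 to 10591 in ft/ft, as were 4 of 6 keratinocyte genes and the collagens *Col1a1*, *Col1a2* and *Col3a1* among 8 fibroblast genes. In bulk tissue, fewer cells of a type and less RNA per cell cannot be told apart.

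Of the 9 components, 1 was higher in the libraries labelled ft/ftMyD88-/-, the receptor gene *C3ar1*, and 0 were lower (edgeR quasi-likelihood test, Benjamini-Hochberg adjusted p under 0.05 over all genes tested). Among all genes tested, 10.9% were higher, 12.3% lower and 23.3% different in either direction, so that 1 of 9 was a share near that of the table as a whole. At an unadjusted p under 0.05, 4 components were higher (*Cfb*, *C1ra*, *C3ar1* and *C5ar1*) and 1 was lower (*C4b*). The share of all genes at this unadjusted threshold was not counted, here or below, so these counts have no share to be set against. DESeq2 called 3 higher and 0 lower, where it called 2865 and 2777 of all genes. With limma voom 1 was higher and 0 lower, against 2193 and 2490 of all genes. The groups did not overlap for 2 of the 9, *Cfb* and *C3ar1*, where 26.7% of all genes tested did not overlap. The median log2 fold change of ft/ftMyD88-/- over ft/ft was 0.15 over the 9 components and 0.01 over all genes tested. The most abundant components of the list, *Cfd*, *C3*, *Serping1* and *C4b*, all had overlapping libraries.

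**Figure D1:**
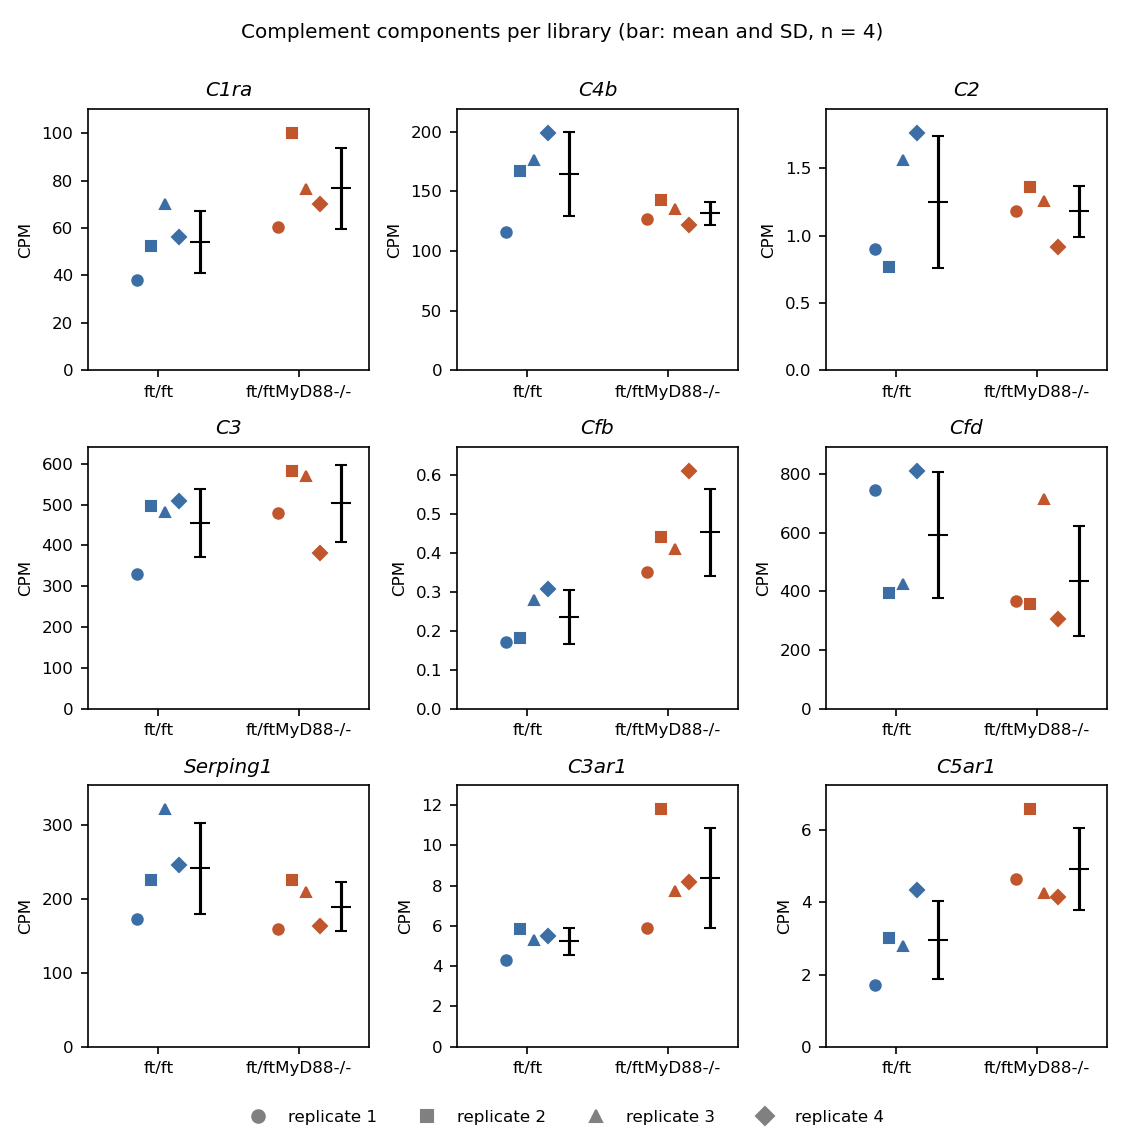
Level of each complement component in every library, in CPM scaled by TMM (vertical axes, each starting at 0), for ft/ft (blue) and ft/ftMyD88-/- (orange). Symbols are the 4 replicates and bars the mean and SD. *C3ar1* runs from 4.29 to 5.86 CPM in ft/ft against 5.87 to 11.8 in ft/ftMyD88-/-, whereas the libraries of *Cfd*, *C3* and *C2* overlap widely.

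Levels of different genes were compared per kilobase of exon, with exon lengths from GENCODE M21 on GRCm38. This scale takes counts to grow with exon length. The labels and the methods name different library protocols, so whether counts did so was not tested. In ft/ft the highest was *Cfd* at 644 ± 234 CPM per kb (SD, n = 4), followed by *Serping1* at 104 ± 26.5, *C3* at 88.3 ± 16.2, *C4b* at 28.9 ± 6.20 and *C1ra* at 18.2 ± 4.40. The receptors came next, *C3ar1* at 1.22 ± 0.156 and *C5ar1* at 1.15 ± 0.418 CPM per kb, and the genes of the convertase proteases were lowest, *C2* at 0.322 ± 0.127 and *Cfb* at 0.0831 ± 0.0241. The library ranges of the neighbours *Serping1* and *C3*, *C4b* and *C1ra*, and *C3ar1* and *C5ar1* overlapped. Both genes of each pair were read in the same libraries, so this overlap does not show that their order varied between libraries. In ft/ftMyD88-/- the order was the same except that *C3* (97.8 ± 18.2) stood above *Serping1* (81.4 ± 14.2) and *C1ra* (25.7 ± 5.70) above *C4b* (23.1 ± 1.66). The library ranges of these neighbours overlapped too, and the order within each library was not tested. On this scale the substrate C3 lay below factor D and far above factor B. The genes of both serine proteases that carry the catalytic site of the C3 convertases had the lowest values.

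The gene models bear on the last of these values. *C2* (chromosome 17, 34862604 to 34898265, minus strand) and *Cfb* (34856374 to 34862518, same strand) are neighbours, and the annotated read-through gene *Gm20547* (34856412 to 34882042) shares 2246 of the 2825 exon bases of *Cfb* and 1656 of the 3872 of *C2* on their own strand. Reads lying in those bases belong to more than 1 gene, and default HTSeq counting leaves such reads out. The annotation release behind the counts is not given and *Gm20547* is not among the rows of the table, so the part of this overlap in the low counts was not tested. Divided by the unshared exon bases alone, *Cfb* was at 0.405 and 0.781 CPM per kb in ft/ft and ft/ftMyD88-/-, and *C2* at 0.563 and 0.532, which left both below the receptors. Only 579 bases of *Cfb* are unshared, and reads that reach from unshared into shared bases are left out as well. The division therefore cannot show how scarce these transcripts were. The other 7 components shared no exon base with another gene on their strand. Near-identical copies also limit 2 of them: 48.0% of the 50-base windows (the read length) of *C1ra* occur in *C1rb* and 34.6% of those of *C4b* in *C4a*.

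The promoters of the only component that passed the test, *C3ar1*, and of the substrate on which the pathways converge, *C3*, are shown because MyD88 signals through NF-kB. Of the 9 components, 5 (*C3*, *Cfd*, *C1ra*, *C3ar1* and *C5ar1*) matched the RefSeq promoter table of GRCm38.p6, and *C2*, *C4b*, *Cfb* and *Serping1* did not. Each line gives the 250 bases before the start used in that table, from which the distances below are counted and which for *C3ar1* lies a few bases inside the GENCODE gene, 5′ to 3′ on the strand of the gene, for *C3ar1* from chr6:122856158-122856407 and for *C3* from chr17:57228137-57228386, both on the minus strand. Capitals mark matches, on either strand, to the motifs searched.
C3ar1: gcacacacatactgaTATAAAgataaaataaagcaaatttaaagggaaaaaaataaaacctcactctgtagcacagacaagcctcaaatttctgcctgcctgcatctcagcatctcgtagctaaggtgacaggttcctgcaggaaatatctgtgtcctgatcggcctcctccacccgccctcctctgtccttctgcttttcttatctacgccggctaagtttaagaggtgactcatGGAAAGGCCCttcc
C3: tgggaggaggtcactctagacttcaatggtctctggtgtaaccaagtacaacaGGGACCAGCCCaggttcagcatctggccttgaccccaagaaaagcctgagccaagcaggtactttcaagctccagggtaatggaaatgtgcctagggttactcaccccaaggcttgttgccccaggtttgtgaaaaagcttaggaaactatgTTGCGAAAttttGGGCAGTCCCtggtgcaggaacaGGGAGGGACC
The *C3ar1* window held the NF-kB letters GGGNNNNNCC, read on the opposite strand, beginning 14 bases before the start, and the letters TATAAA of the core promoter box at 235. The *C3* window held the NF-kB letters at 197, 196, 33 and 10 bases before the start, the first 2 of which overlap, and TTGCNNAA (C/EBP) at 45. *Cfd* had 1 NF-kB match at 111. The windows of *C1ra* and *C5ar1*, most of whose bases lie inside the GENCODE genes, were searched as well and held no match to any motif. TTCNNNGAA (GAS, the letters bound by STAT factors) and GAGGAAGT (PU.1) were also searched and were found in none of the 5 windows. Of 32851 promoters of this length, 45.8% held the NF-kB letters, 12.4% TATAAA, 9.56% the C/EBP letters, 7.02% GAS and 2.44% PU.1. The NF-kB letters, found in 3 of the 5 windows, are thus common in promoters. A match is a description of sequence and not a bound site.

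Among the receptors, *C3ar1* (chromosome 6, 122847138 to 122856161), which encodes the receptor of C3a, was at 4.29, 5.86, 5.30 and 5.48 CPM in ft/ft replicates 1 to 4 and at 5.87, 11.8, 7.72 and 8.17 in ft/ftMyD88-/-. Every ft/ftMyD88-/- library lay above every ft/ft library, though replicate 1 only just did so and replicate 2 stood well above the rest. The means of 5.23 ± 0.671 and 8.39 ± 2.48 (SD, n = 4) differed by 1.60-fold, a log2 fold change of 0.68 (standard error, SE, 0.200, 95% interval 0.25 to 1.12, edgeR adjusted p = 0.0274). This call did not hold in 5 of the 8 fits that each left out 1 library, with adjusted p up to 0.0810 and a log2 fold change of 0.47 without ft/ftMyD88-/- replicate 2.

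*C5ar1* (chromosome 7, 16246743 to 16259540), which encodes the C5a receptor of neutrophils, macrophages and mast cells, was at 1.71, 3.02, 2.79 and 4.33 CPM in ft/ft and 4.64, 6.58, 4.25 and 4.15 in ft/ftMyD88-/-. Only ft/ft replicate 4 reached into the range of the other group. The log2 fold change of 0.72 was as large as that of *C3ar1* (SE 0.257, 95% interval 0.17 to 1.28) but did not pass (edgeR adjusted p = 0.0596). It passed with DESeq2 (adjusted p = 0.0272), with library size alone (0.0248) and without ft/ft replicate 4 (0.0235). The related receptor *C5ar2* had at most 14 counts in any library and did not pass (log2 fold change 0.15, edgeR adjusted p = 0.895).

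Few markers of the cells that carry these receptors passed the test. Higher were 1 of 8 macrophage and monocyte genes, 1 of 5 tested neutrophil genes and 1 of 7 mast cell genes. Of all genes tested, 10.9% were higher. The summed CPM of 8 macrophage and monocyte genes ran from 253 to 370 in ft/ft against 293 to 456 in ft/ftMyD88-/-, lowest in ft/ft replicate 1 and highest in ft/ftMyD88-/- replicate 2, which were also the lowest and highest libraries of *C3ar1*. Of those 8 genes, 1 was higher, *Ccr2*, the chemokine receptor of monocytes (19.8 against 32.9 CPM, log2 fold change 0.74, edgeR adjusted p = 0.00525), and the other 7 did not pass, with log2 fold changes from -0.21 (*Csf1r*, edgeR adjusted p = 0.241) to 0.48 (*Cd163*, edgeR adjusted p = 0.250). The median of the 8 was 0.045. Neutrophil markers summed to 21.3 to 40.4 CPM in ft/ft against 26.9 to 50.3 in ft/ftMyD88-/-, with 1 of 5 tested genes higher (*Csf3r*) and the granule genes *Camp* and *Ngp* near 0. Of 7 mast cell genes 1 was higher (*Hdc*), with sums of 113 to 144 and 111 to 181 CPM. The part of these cells in the receptor values was not tested.

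*C1ra* and *Serping1* encode an enzyme and its inhibitor, the protease C1r and the C1 inhibitor that inactivates it. *C1ra* (chromosome 6, 124512405 to 124523443) was at 38.3, 52.3, 70.1 and 56.4 CPM in ft/ft and 60.3, 100.2, 76.4 and 70.1 in ft/ftMyD88-/-. *Serping1* (chromosome 2, 84765387 to 84775444) was at 172, 226, 321 and 246 in ft/ft and 159, 225, 209 and 164 in ft/ftMyD88-/-. Within each group the same library was lowest in both genes, ft/ft replicate 1 and ft/ftMyD88-/- replicate 1, and the same library was highest, ft/ft replicate 3 and ft/ftMyD88-/- replicate 2. Neither gene passed on its own: *C1ra* had a log2 fold change of 0.50 (SE 0.195, 95% interval 0.07 to 0.94, edgeR adjusted p = 0.0913) and *Serping1* of -0.35 (SE 0.182, 95% interval -0.75 to 0.05, edgeR adjusted p = 0.192). The estimates lay on opposite sides of 0. *C1ra* passed with DESeq2 (adjusted p = 0.0374), with library size alone (0.0346) and without ft/ft replicate 3 (0.0373).

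Taken within a library, where depth and scaling drop out, the count of *C1ra* per count of *Serping1* was nearly constant in ft/ft, at 0.222, 0.232, 0.218 and 0.229. In ft/ftMyD88-/- it was 0.380, 0.445, 0.365 and 0.428. The 2 sets of libraries lay far apart, with means of 0.225 ± 0.00621 and 0.404 ± 0.0380 (SD, n = 4), a 1.79-fold difference or 0.84 on the log2 scale. The two-sided exact permutation test gave p = 0.0286, the smallest that 4 libraries against 4 allow. Adjusted over the 36 pairs among the 9 components this was 0.0857, which does not pass and is the smallest value reached. The ratio was chosen after its values were seen. Separation in either direction was common among these pairs, which share genes: 12 of the 36 pairs and 5 of the 8 with *Serping1* did not overlap. Of all genes tested, 12.1% had a ratio to *Serping1* that was higher in every ft/ftMyD88-/- library. That share counts 1 direction only. Leaving out any 1 library gave a log2 difference of 0.79 to 0.89, and it was 0.83 with *C1rb* added to *C1ra*.

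The gene of the other C1 protease separated in the same way. *C1s1* per count of *Serping1* was 0.190, 0.184, 0.162 and 0.191 in ft/ft and 0.341, 0.359, 0.353 and 0.411 in ft/ftMyD88-/-, a 2.01-fold difference between the means (two-sided exact permutation test, p = 0.0286, unadjusted, for a pair outside the 36 that was also chosen after its values were seen). *C3* per count of *Serping1* also separated the groups, at 1.92 ± 0.302 and 2.66 ± 0.290 (SD, n = 4), a 1.39-fold difference with the same exact p of 0.0286. Adjusted over the 36 pairs this was 0.0857, which does not pass. The gap was narrow, with ft/ft libraries at up to 2.20 and ft/ftMyD88-/- libraries from 2.32. *C4b* did not, at 0.692 ± 0.111 and 0.705 ± 0.0781 (SD, n = 4), with overlapping libraries. Relative to the C1 inhibitor, the transcripts of both C1 proteases and of C3 thus stood higher in every ft/ftMyD88-/- library, and those of C4 did not. Fibroblast markers summed to 14323 to 29465 CPM in ft/ft and 7241 to 10725 in ft/ftMyD88-/-. These sums were highest in ft/ft replicate 3 and ft/ftMyD88-/- replicate 2, the libraries with the highest *Serping1* and *C1ra*. They were mostly collagen, as *Col1a1*, *Col1a2* and *Col3a1* had ft/ft means of 4804, 6033 and 7582 CPM. *Dcn*, the next most abundant, overlapped between the groups and was highest in replicate 3 of each, at 2043 and 1367 CPM. Of the 8, the 3 collagens were lower, while *Pdgfra* (log2 fold change 0.31, edgeR adjusted p = 0.394), *Dcn* (-0.40, 0.215) and *Lum* (0.09, 0.838) did not pass, and the part of fibroblast number in the ratios was not tested.

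**Figure D2:**
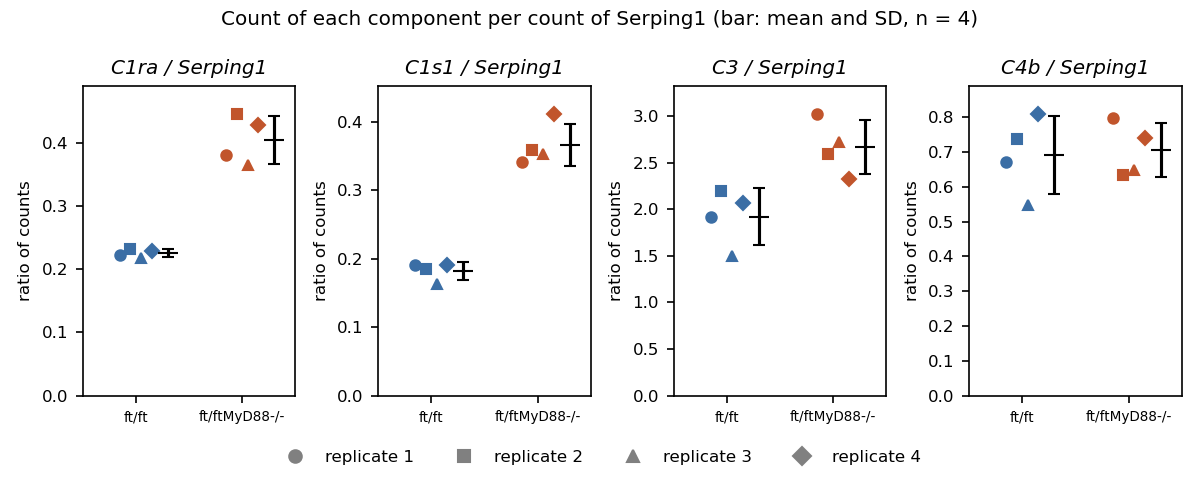
Counts of *C1ra*, *C1s1*, *C3* and *C4b* per count of *Serping1* within each library (vertical axes, ratio of counts, starting at 0), for ft/ft (blue) and ft/ftMyD88-/- (orange), with symbols for the 4 replicates and bars for mean and SD. *C1ra* per *Serping1* lies at 0.218 to 0.232 in ft/ft against 0.365 to 0.445 in ft/ftMyD88-/-, and *C4b* per *Serping1* overlaps.

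Among the central components, *C3* (chromosome 17, 57203970 to 57228136), the substrate of every convertase, was at 330, 496, 483 and 508 CPM in ft/ft and 479, 583, 569 and 381 in ft/ftMyD88-/-. The groups overlapped widely, with ft/ft replicate 1 the lowest library of all. The means were 454 ± 83.3 and 503 ± 93.7 (SD, n = 4), with a log2 fold change of 0.15 (SE 0.161, 95% interval -0.20 to 0.50, edgeR adjusted p = 0.552), so that the interval reaches a rise of 0.50 on the log2 scale at most. *C3* was among the best counted of the components, with a mean of 11628 counts, so that depth did not limit it. Of the hepatocyte markers, *Fgb* had 0 counts in every library, *Alb* was at 1.48 and 0.592 CPM in ft/ft and ft/ftMyD88-/-, and the highest, *Serpina1b*, was at 4.37 and 6.92. The summed level of 7 such genes was 6.26 to 8.44 CPM in ft/ft and 8.24 to 10.8 in ft/ftMyD88-/-, with 2 of 6 tested genes higher (*Ambp* and *Serpina1b*).

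*C4b* (chromosome 17, 34728380 to 34743882), which encodes the C4 that C1s cuts, was at 116, 167, 176 and 199 CPM in ft/ft and 127, 143, 136 and 121 in ft/ftMyD88-/-. The ft/ftMyD88-/- libraries were close together, and 3 of the 4 ft/ft libraries lay above all of them. The log2 fold change was -0.32 (SE 0.141, 95% interval -0.63 to -0.01, edgeR adjusted p = 0.119). It passed in 1 alternative, without ft/ft replicate 1, the lowest *C4b* library of its group (log2 fold change -0.46, edgeR adjusted p = 0.00880). Its copy *C4a*, the sex-limited protein gene, was at 2.44 ± 0.751 and 2.11 ± 0.529 CPM (SD, n = 4), and adding its counts to those of *C4b* left the value at -0.32.

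*C2*, the protease of the classical convertase, was at 0.900, 0.764, 1.56 and 1.76 CPM in ft/ft and 1.18, 1.36, 1.26 and 0.915 in ft/ftMyD88-/-, from 15 to 46 counts per library. The ft/ftMyD88-/- libraries lay within the range of the ft/ft libraries. The log2 fold change was -0.06 (SE 0.298, 95% interval -0.70 to 0.59, edgeR adjusted p = 0.912), and its sign turned in 5 alternatives. At these counts a difference within that interval could not be detected.

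Of the alternative pathway, *Cfb* (factor B) gave counts of 4, 5, 5 and 8 in the ft/ft libraries against 8, 12, 12 and 10 in ft/ftMyD88-/-. Scaled for depth this was 0.171, 0.182, 0.279 and 0.307 CPM against 0.351, 0.441, 0.408 and 0.610. The groups did not overlap, yet the fit over these few counts did not pass (log2 fold change 0.92, SE 0.390, 95% interval 0.07 to 1.77, edgeR adjusted p = 0.109). Its estimate was the largest of the 9 components and also the least precise.

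*Cfd* (chromosome 10, 79890853 to 79892655), the adipocyte protease adipsin or factor D that cuts factor B, was the most abundant component, at 745, 393, 425 and 812 CPM in ft/ft and 368, 359, 715 and 306 in ft/ftMyD88-/-. In each group the libraries fell apart into high and low ones, with ft/ft replicates 1 and 4 and ft/ftMyD88-/- replicate 3 at 715 to 812 CPM and the other 5 at 306 to 425. The means were 594 ± 215 and 437 ± 188 (SD, n = 4), with a log2 fold change of -0.44 (SE 0.358, 95% interval -1.28 to 0.40, edgeR adjusted p = 0.423).

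The same 3 libraries had the highest sums of adipocyte markers. The summed CPM of 8 adipocyte genes, among which *Cfd* was not counted, was 1248, 886, 910 and 1835 in ft/ft and 715, 636, 1588 and 677 in ft/ftMyD88-/-. None of these 8 genes, which include *Adipoq*, *Plin1*, *Cidec* and *Car3*, passed the test between the groups with edgeR, 0 passed an unadjusted p of 0.05, and DESeq2 and limma voom called 0. Much of each sum was *Car3*, at 740 and 1047 CPM in ft/ft replicates 1 and 4 and 865 in ft/ftMyD88-/- replicate 3. *Plin4* alone went otherwise in ft/ft, lowest in replicate 1 (99.4 CPM) and at 156 in replicate 2. In both groups the libraries high in *Cfd* were thus those with high sums of fat markers. The part of fat content in the *Cfd* values was not tested.

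**Figure D3:**
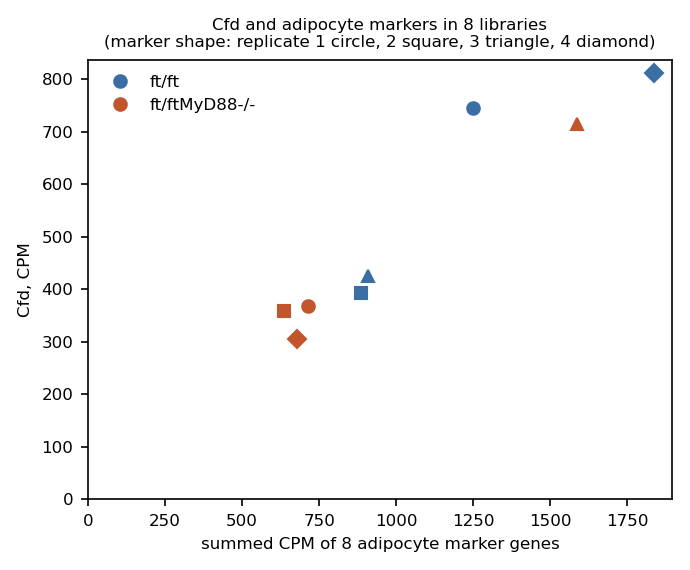
*Cfd* (vertical axis, CPM) against the summed CPM of 8 adipocyte marker genes (horizontal axis) in the 8 libraries, with ft/ft in blue and ft/ftMyD88-/- in orange and marker shapes for the replicate numbers. The 3 libraries at 715 to 812 CPM of *Cfd* are those with marker sums of 1248 to 1835, and the other 5 have sums of 636 to 910.

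Libraries high or low in 1 component tended to be so in others. ft/ft replicate 1 was the lowest of its group in 7 of the 9 components (*C3*, *C4b*, *Cfb*, *C1ra*, *Serping1*, *C3ar1* and *C5ar1*), and ft/ft replicate 4 the highest in 6. In ft/ftMyD88-/-, replicate 2 was the highest in 7 components and replicate 4 the lowest in 5. *Cfd* shared the ranks of both replicates 4, but it was not lowest in ft/ft replicate 1, at 745 CPM, nor highest in ft/ftMyD88-/- replicate 2, at 359.

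**Figure D4:**
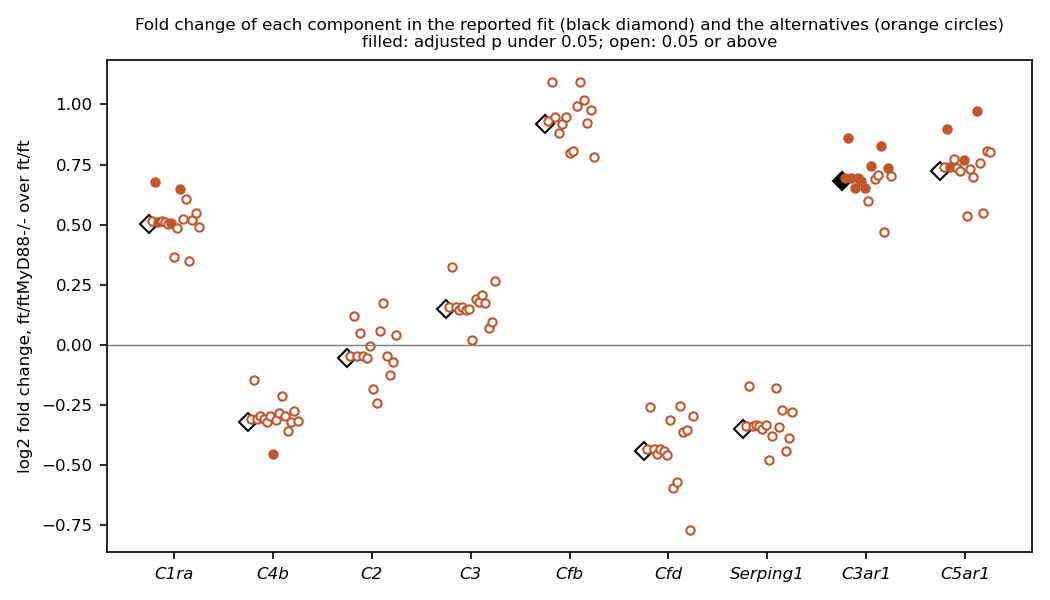
Log2 fold change of ft/ftMyD88-/- over ft/ft (vertical axis) for each component in the reported fit (black diamond) and in the alternative fits (orange circles), filled where the adjusted p was under 0.05. *C3ar1* lies between 0.47 and 0.86 and loses its call in 5 fits, *C1ra* and *C5ar1* pass in 4 fits each, *C4b* in 1, and the points of *C2* fall on both sides of 0.

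The remaining genes of the system were read from a list of 54 genes in 8 roles that includes the 9 components. Of these, 47 were in the table and 44 were tested, *Masp2*, *Cfi* and *Cr2* having too few counts, and *Mbl1*, *Mbl2*, *Fcnb*, *C8a*, *C8b*, *C4bp* and *Cd55b* were not analysed here. The edgeR test called 6 of the 44 higher in ft/ftMyD88-/- (*C1qa*, *C1s1*, *C1s2*, *C3ar1*, *C6* and *Masp1*) and 4 lower (*C7*, *Itgax*, *Susd4* and *Vtn*), shares near the 10.9% and 12.3% of all genes tested. The median log2 fold change was 0.15. With library size alone as the scaling, which moved the median of all genes from 0.01 to 0.19, 12 were higher and 2 lower. Over all genes 4638 were then higher and 1326 lower, so the change was not particular to this list.

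Of the 6 increases, 4 lay in the 7 tested genes of classical initiation and the 4 of lectin initiation, where 10.9% of all genes tested were higher. The list had been chosen with earlier results of these data known, and *C1s1* and *C1s2* among the 4 are copies that share sequence. Of 7 genes of classical initiation, 3 were higher and 0 lower with a median log2 fold change of 0.50. At an unadjusted p under 0.05 edgeR counted 4 higher and 0 lower, for which the share of all genes was not counted. DESeq2 called 4 and 0 and limma voom 3 and 0. Over all genes, DESeq2 called 2865 higher and 2777 lower, and limma voom 2193 and 2490. *C1s1*, the C1s protease, rose from 43.4 ± 8.26 to 69.0 ± 11.4 CPM (SD, n = 4; log2 fold change 0.67, SE 0.152, edgeR adjusted p = 0.00884), with libraries at 32.8 to 52.2 against 54.1 to 80.8. *C1qa*, a chain of the recognition molecule C1q, rose from 67.4 ± 9.76 to 96.2 ± 15.9 CPM (log2 fold change 0.51, edgeR adjusted p = 0.0158), whereas the other 2 chains, *C1qb* (0.24, edgeR adjusted p = 0.257) and *C1qc* (0.14, 0.448), did not pass. The calls of *C1s1* and *C1qa* held in all 15 alternative fits. *C1s2*, a copy that shares 50-base windows with *C1s1*, rose as well (log2 fold change 0.68, edgeR adjusted p = 0.0240), and 576 of the 3129 exon bases of *C1s1* overlap an antisense gene, which unstranded counting could not separate. Of 4 tested genes of lectin initiation, *Masp1*, a protease that associates with mannose-binding lectin, rose from 29.8 ± 7.98 to 53.4 ± 13.6 CPM (log2 fold change 0.84, SE 0.226, edgeR adjusted p = 0.0257). The call of *C1s2* and that of *Masp1* were each lost in 3 of the 15 fits.

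None of the 5 central components passed with edgeR. At an unadjusted p under 0.05 there was 1 higher (*Hc*, which encodes C5, log2 fold change 1.06, edgeR adjusted p = 0.0580) and 1 lower (*C4b*), and DESeq2 called 1 higher and limma voom 0. Of the alternative pathway 0 of 3 passed with edgeR, DESeq2 or limma voom, and *Cfb* alone reached an unadjusted p under 0.05. Of 6 tested soluble regulators 1 was lower, and so was 1 of 7 membrane regulators. *Vtn* (vitronectin, which keeps the terminal complex out of membranes) fell from 6.65 ± 1.15 to 3.50 ± 0.968 CPM (SD, n = 4; log2 fold change -0.91, SE 0.211, edgeR adjusted p = 0.00894), in all 15 alternative fits. *Susd4* (log2 fold change -0.57, edgeR adjusted p = 0.0399), a membrane inhibitor, and *Itgax* (-0.49, edgeR adjusted p = 0.0432), a chain of complement receptor 4, also fell but lost their calls in 9 of the 15 fits each. *Clu* (log2 fold change -0.30, edgeR adjusted p = 0.124), *Cd55* (0.29, 0.117) and *Cr1l* (-0.12, 0.365) did not pass.

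The largest difference of the list was that of *C7* (chromosome 15, 4988762 to 5063740), a component of the membrane attack complex. Its counts were 2250, 3336, 2645 and 3299 in the ft/ft libraries against 10, 19, 29 and 1 in ft/ftMyD88-/-. This was 123 ± 21.0 CPM against 0.546 ± 0.393 (SD, n = 4), a 225-fold lower mean with no overlap (log2 fold change -7.66, SE 0.371, edgeR adjusted p = 1.47e-05). The log2 fold change lay between -8.08 and -7.39 in 15 alternative fits, all of which kept the call. Every ft/ftMyD88-/- library still held at least 1 count. Its partner *C6* went the other way, from 1.23 ± 0.773 to 2.64 ± 0.336 CPM (log2 fold change 1.08, SE 0.342, edgeR adjusted p = 0.0402), with overlapping libraries and a call lost in 6 of the 15 fits. *C9* (log2 fold change -0.10, edgeR adjusted p = 0.838) and *C8g* (-0.04, 0.927) did not pass.

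**Figure D5:**
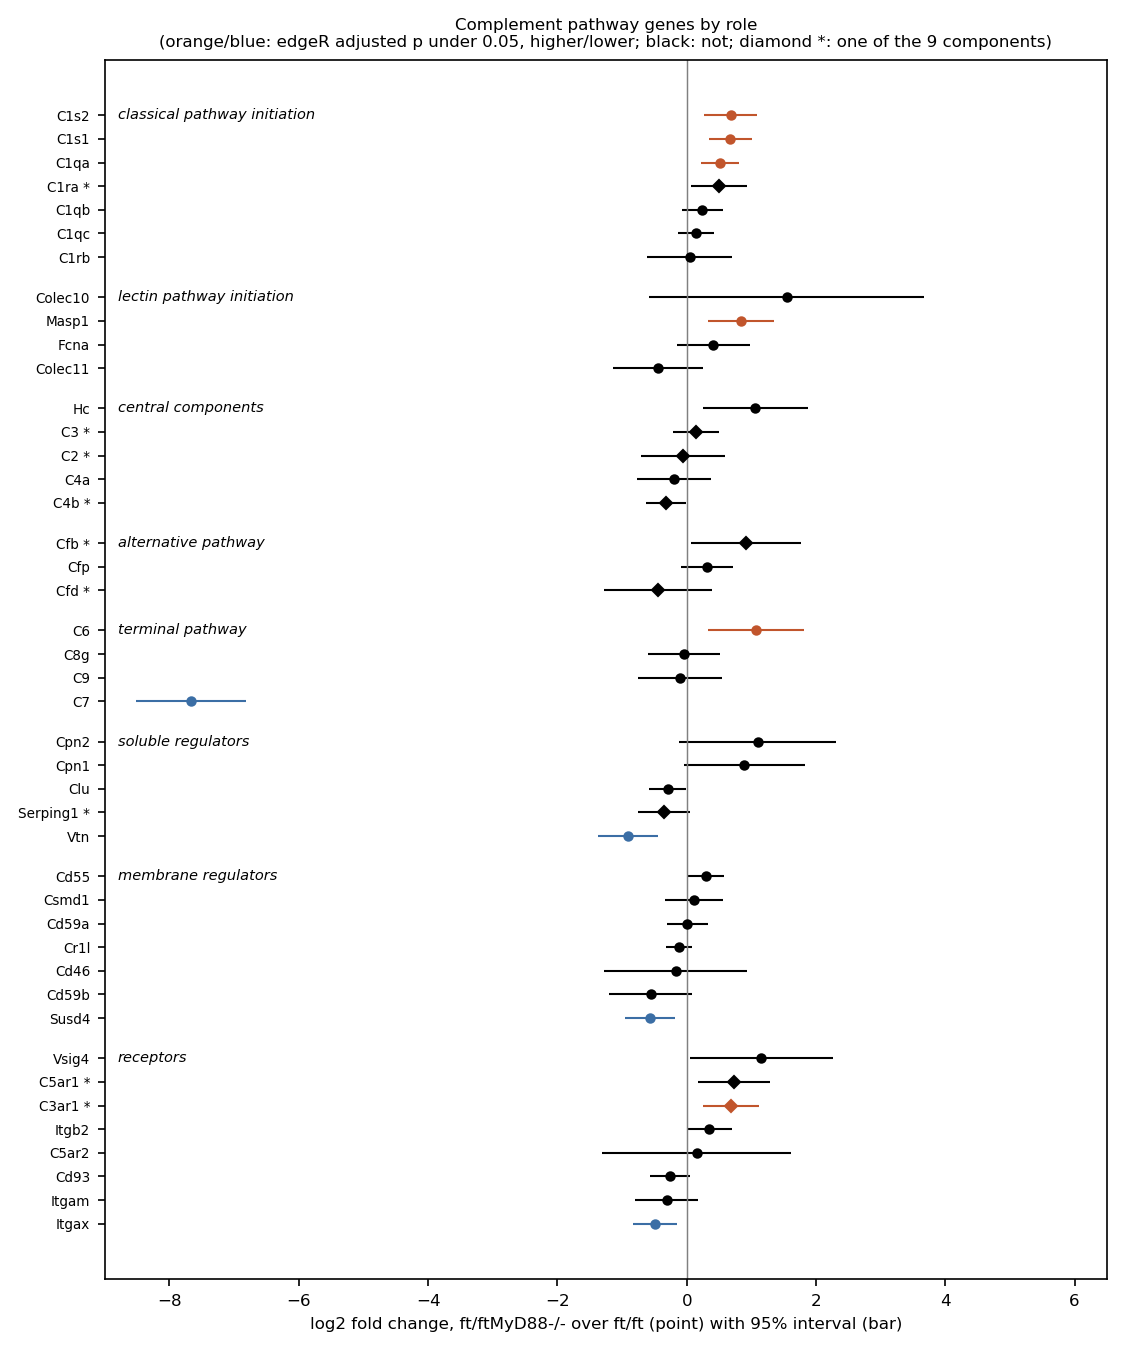
Log2 fold change of ft/ftMyD88-/- over ft/ft (horizontal axis, point, with its 95% interval as a bar) for the tested complement genes, grouped by role and without 1 that is not reported here, with diamonds and asterisks for the 9 components. Orange marks the 6 genes that were higher and blue the 4 that were lower at an edgeR adjusted p under 0.05, and *C7* stands alone at -7.66.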

How the data were processed

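Periocular skin RNA-seq of 4 ft/ft and 4 ft/ftMyD88-/- libraries was used. The authors deposited raw counts per gene without normalization. The methods describe polyA-selected TruSeq libraries, reads of 50 bases aligned to GRCm38.p6 (HISAT, TopHat2) and default HTSeq counting. Versions, annotation release and strand setting are not given in the sources used here. The labels instead name total RNA, a fixed-tissue protocol and Cell Ranger, a conflict that was not resolved. Columns were matched to samples by library name, and 0 columns were left unused. All 4 WT samples were not analysed here.

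Testing used edgeR 4.0.16 in R 4.3.3 for genes whose 8 libraries summed to 10 counts or more (TMM, glmQLFit with robust = TRUE, glmQLFTest, two-sided, no covariate) and Benjamini-Hochberg adjustment at 0.05. CPM use TMM-scaled library sizes, intervals are 95% intervals from the fit, and fold changes are of ft/ftMyD88-/- over ft/ft. The biological coefficient of variation was 0.182. Alternatives used DESeq2 1.42.0 and limma 3.58.1 (voom), among others. Floors cover counting error only. Replicates of a group differed by at least 15.1 in chi-square per degree of freedom, so none was a duplicate. On simulated data (20454 genes drawn, 20159 tested) the fit called 158 of 200 genes changed 4-fold and 12 unchanged genes.

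The genes named are the 9 components, the complement and marker lists, label checks, and for each component the 2 genes with the most similar profile among those with a mean of at least 50 counts. *Tmem79* and the neighbours of *C7* were added after their values were seen. Members and lists were chosen with earlier results of these data known. Exon overlaps, exon lengths and shared 50-base windows came from GENCODE M21. The values of 1 gene of the complement list are not reported here, though it is counted among the genes tested.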

Additional observations from a re-analysis of the deposited data

Results flagged for a closer look

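In 18 sets of 4 libraries (9 components in 2 groups), a library far from the other 3 was found in 2 sets by Dixon's test at 95%, which chance gives in about 1 of 20. *C3* in ft/ft replicate 1 was at 330 CPM, where the other 3 ft/ft libraries were at 483 to 508. That library was also the lowest of its group in 6 other components. *Cfd* in ft/ftMyD88-/- replicate 3 was at 715 CPM, where the other 3 libraries of the group were at 306 to 368, and its adipocyte marker sum was 1588 CPM against 636 to 715. Without ft/ft replicate 1 the *C3* log2 fold change was 0.02 (adjusted p = 0.929), and without ft/ftMyD88-/- replicate 3 that of *Cfd* was -0.77 (adjusted p = 0.0718), neither of which passed with edgeR.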

How the results depend on the processing

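The number of components called higher, 1 in the reported fit, was 3 with library size alone, with DESeq2 and with the replicate number as a block (*C1ra*, *C3ar1* and *C5ar1* each time), 0 at an adjusted p under 0.01 and 0 at a log2 fold change of at least 1, and 0 to 1 with each library left out. The number called lower, 0, was 0 to 1 with each library left out, the 1 being *C4b* without ft/ft replicate 1. Of the complement list, 6 genes were higher, which became 12 with library size alone, 1 at 0.01, 1 at a log2 fold change of at least 1 and 2 to 8 with each library left out. The 4 lower genes became 2 with library size alone, 2 with the replicate block, 2 at 0.01, 1 at a log2 fold change of at least 1 and 2 to 4 with each library left out. Over all genes, 2239 were higher and 2525 lower in the reported fit, 4638 and 1326 with library size alone, 951 and 1350 at 0.01, 752 and 520 at a log2 fold change of at least 1, and 1462 to 2260 and 1851 to 2408 with each library left out. *C2* changed sign with library size alone (0.12) and limma voom (0.048) and ran from -0.24 to 0.18 with each library left out, being 0.06 without ft/ft replicate 3, 0.18 without ft/ft replicate 4 and 0.04 without ft/ftMyD88-/- replicate 4. The cause of these moves was not tested. The other 8 components kept their direction in every alternative. No pairing by replicate number was seen, as deviations of same-numbered libraries from their group means correlated at -0.35, 0.04, 0.07 and -0.03 over 13508 genes. Those of differently numbered libraries ran from -0.32 to 0.22, so a weak pairing would not show in this check. edgeR's filterByExpr removed *Cfb*, whose 4 to 12 counts per library, like the 15 to 46 of *C2*, limit what could be detected.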

Other observations

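Within 1 Mb of *C7* on chromosome 15, 9 other genes were tested. *Card6* (log2 fold change -0.23, edgeR adjusted p = 0.341), *Rpl37* (-0.28, 0.102), *Prkaa1* (-0.21, 0.0878), *Ttc33* (-0.10, 0.583), *Ptger4* (-0.15, 0.319) and *Oxct1* (-0.17, 0.185) did not pass. *C6* and *Snord72* were higher and *Plcxd3* was lower, of which *Snord72* and *Plcxd3* had means of only 2.38 and 3.12 counts.

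For each component the 2 most similar genes are those with the smallest root mean square difference of centred log2 CPM over the 8 libraries, among 13508 genes. These were *Mn1* (0.0663) and *Plxnd1* (0.0868) for *C3*, *Zfp366* (0.0925) and *Csf1r* (0.0929) for *C4b*, *Emilin1* (0.0743) and *Sulf1* (0.109) for *C1ra*, and *Scara3* (0.0671) and *Prelp* (0.0790) for *Serping1*. For *C3ar1* they were *Snx20* (0.111) and *Fcgr2b* (0.122), for *C5ar1* *Heg1* (0.172) and *Sla* (0.187), and for *Cfd* *Slc36a2* (0.114) and *Chst1* (0.132). *C2* was nearest to *Hcn4* (0.108) and *Kcna5* (0.123), and *Cfb* to *Dpep1* (0.145) and *Gins2* (0.149). All 8 libraries enter each value, so group differences, library scaling and tissue content are part of the likeness.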
